A study of Mus musculus with 6 samples.

Results

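The neuromuscular junction genes described here are 10 genes of the muscle side of the nerve-muscle synapse, chosen by name: the acetylcholine receptor subunits Chrna1, Chrnb1, Chrnd and Chrne, the organisers Musk, Lrp4, Dok7 and Rapsn, the enzyme gene Ache and the adhesion gene Ncam1. All 10 are among the 20015 genes of the deposited table and all 10 passed the filter on low counts, as did 16095 genes in all. RNA was sequenced from quadriceps, the muscle group that extends the knee, in 3 libraries of injured quadriceps (A, B and C) and 3 of non-injured quadriceps (A, B and C), where injured means a torn anterior cruciate ligament. The organism label is Mus musculus, although the design text and the RNA protocol call the tissue human; 96.6% of the rows carry the coordinates of the mouse gene of that name in GENCODE M21 on mm10, so the values are described as mouse. The table is named for myonuclear RNA, meaning RNA of muscle fibre nuclei, but the protocol describes a total RNA extraction with no step to isolate nuclei, so the material is uncertain. Strain, genotype, age, the way the ligament was torn and the time since injury are not given in the labels, and the labels leave it unsaid if each library is a different animal, so the p-values here reflect library-to-library spread that may be technical.

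The neuromuscular junction is the site where a motor axon releases acetylcholine onto a muscle fibre. The nerve secretes agrin, which binds LRP4, and LRP4 activates the receptor kinase MuSK; with the adaptor DOK7, MuSK signals to rapsyn, which packs acetylcholine receptors under the terminal. In innervated adult fibres the genes of the synapse are transcribed mainly by the few nuclei beneath the terminal, and the epsilon subunit takes the place of the fetal gamma subunit in the receptor. Loss of the nerve is known to raise transcription of Chrna1, Chrnd, Chrng, Musk and Ncam1 along the whole fibre, which makes these genes usual markers of denervated muscle.

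Promoter sequence was available for 6 of the 10 genes, from RefSeq on GRCm38.p6 (the assembly of mm10). Synaptic genes are classically described by 2 short motifs. These are the E-box, CANNTG, which myogenic factors such as myogenin bind, and the N-box, CCGGAA, which the ETS factor GABP binds. The windows of Chrna1, Chrnb1, Musk and Chrne are shown, which are the members that held 3 E-boxes or an N-box. Each window is the 200 bases before the RefSeq transcript start, 5′ to 3′ on the strand of the gene, and capitals mark E-boxes and N-boxes on either strand.
Chrna1, chr2:73580339-73580538, minus strand: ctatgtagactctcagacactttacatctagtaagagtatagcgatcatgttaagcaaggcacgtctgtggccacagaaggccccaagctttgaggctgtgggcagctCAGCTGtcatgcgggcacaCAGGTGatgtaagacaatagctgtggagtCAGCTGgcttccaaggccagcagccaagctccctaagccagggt
Chrnb1, chr11:69795938-69796137, minus strand: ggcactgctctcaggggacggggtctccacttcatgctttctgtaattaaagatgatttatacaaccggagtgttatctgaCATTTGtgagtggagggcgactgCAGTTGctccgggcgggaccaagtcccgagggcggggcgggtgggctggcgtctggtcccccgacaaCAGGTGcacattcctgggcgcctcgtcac
Musk, chr4:58285762-58285961, plus strand: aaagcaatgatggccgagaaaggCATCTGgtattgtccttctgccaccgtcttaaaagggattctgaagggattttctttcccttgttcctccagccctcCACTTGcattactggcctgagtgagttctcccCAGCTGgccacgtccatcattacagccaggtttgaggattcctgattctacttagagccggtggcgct
Chrne, chr11:70619195-70619394, minus strand: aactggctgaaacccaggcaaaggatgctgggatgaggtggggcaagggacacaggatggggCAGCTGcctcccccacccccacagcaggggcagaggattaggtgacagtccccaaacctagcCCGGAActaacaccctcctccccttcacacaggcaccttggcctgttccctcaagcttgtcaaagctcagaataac
Chrna1 carried 3 E-boxes, CAGCTG at 92 and 44 bases and CAGGTG at 73 bases before the start. Chrnb1 and Musk also carried 3 each, and 3 or more stood in 7.49% of 32851 windows of this length. Of the genes not shown, Ache carried 1 E-box, and Dok7 carried 1 in its upstream window and 0 in its other window. Chrne carried 1 E-box, 138 bases before the start, and the N-box CCGGAA 76 bases before the start. It was the only 1 of the 6 genes with an N-box, a motif found in 10.7% of all windows, and at least 1 E-box stood in 58.2% of them. No E-box overlapped an N-box in the printed windows, and a match of letters is a description of sequence only.

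Library totals ran from 6.45 to 8.75 M estimated counts, and the muscle fibre genes were abundant throughout: 12 fibre identity genes, led by Ttn, Neb and Myh4, together took 196000 to 204000 CPM in injured and 212000 to 219000 CPM in non-injured libraries. CPM is the usual depth-scaled unit, here counts over the library total after TMM scaling, a method that sets libraries to a common scale. Differences between injured and non-injured muscle were tested with edgeR's quasi-likelihood test over all 16095 genes, with p-values adjusted by Benjamini and Hochberg and called under 0.05. This fit called 115 genes higher (0.715% of all) and 5 lower (0.0311%), 0.746% in either direction.

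No junction gene passed the test. Of the 10, 0 were higher and 0 lower in injured quadriceps by edgeR, by DESeq2 and by limma-voom, and also with the letter of the library as a block in edgeR, where 5.86% of all genes passed. At an unadjusted p under 0.05 in edgeR 1 of the 10, Ncam1, was higher and 0 were lower, while 15.4% of all genes had such a p. With the block Ncam1 was again the only 1, against 21.8% of all genes. Of the members 7 had a positive and 3 a negative log2 fold change (injured over non-injured), with a median of 0.16 against 0.00 for all genes tested. Summed over the 10 genes, the level was 195 to 225 CPM in injured and 184 to 211 CPM in non-injured libraries, so the summed ranges overlapped.

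**Figure D1:**
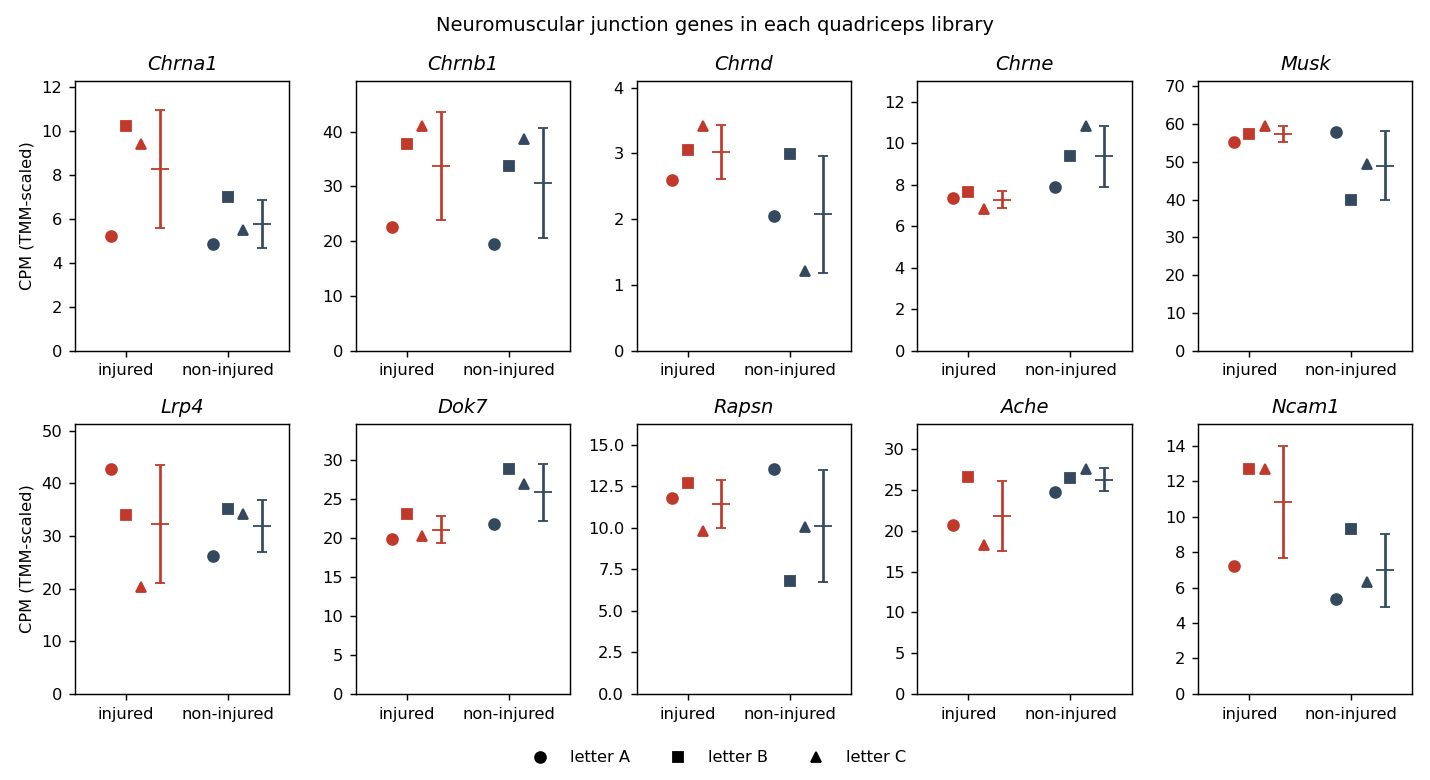
Level of each of the 10 junction genes in the 6 libraries, in TMM-scaled CPM on axes that start at 0; symbols give the letter of the library, and the bars beside them the mean and SD of 3 libraries. Among the 10 panels, Chrne is the only one in which the injured libraries (6.84 to 7.64 CPM) and the non-injured libraries (7.91 to 10.8 CPM) do not overlap.

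The receptor subunits did not move as a block. Chrna1 encodes the alpha subunit, which holds most of the acetylcholine binding site. It had 5.21, 10.2 and 9.40 CPM in injured libraries A, B and C, against 4.85, 7.003 and 5.49 CPM in non-injured libraries A, B and C. Injured B and C were above every non-injured library, while injured A lay among the non-injured ones. The log2 fold change was 0.52 ± 0.29 (SE, n = 3 per group, edgeR adjusted p 0.435), with a 95% interval for the fold of 0.919 to 2.22.

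Chrnb1, the beta subunit, was the most abundant receptor subunit at 22.5, 37.7 and 41.0 CPM in injured libraries A, B and C, against 19.4, 33.8 and 38.7 CPM in non-injured libraries A, B and C. The libraries of letter A were the lowest of both groups, and the groups overlapped almost fully. Its log2 fold change was 0.14 ± 0.26 (SE, edgeR adjusted p 0.836), with a fold interval of 0.752 to 1.62. Chrnd, the delta subunit, was the scarcest member, with 17, 20 and 24 counts in injured libraries A, B and C, against 16, 26 and 9 counts in non-injured libraries A, B and C. Non-injured C was the lowest library and non-injured B lay within the injured range on the CPM scale (2.98 CPM against 2.60 to 3.42 CPM). For Chrnd the log2 fold change was 0.53 ± 0.43 (SE, edgeR adjusted p 0.601). Among the 3297 tested genes that averaged fewer than 20 counts, as Chrnd did, the median log2 fold change was itself 0.39.

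Chrne, the epsilon subunit of the adult receptor, had the opposite sign. It had 7.35, 7.64 and 6.84 CPM in injured libraries A, B and C, against 7.91, 9.41 and 10.8 CPM in non-injured libraries A, B and C. All 3 injured libraries lay below all 3 non-injured ones. Such a gap was seen in 1 of the 10 members and in 21.5% of all genes. The log2 fold change was -0.37 ± 0.23 (SE, edgeR adjusted p 0.475), lower in 3 of 3 letter pairs, and the fold interval of 0.552 to 1.09 included no change. The model 4930544D05Rik lies on the opposite strand over an intron of Chrne and averaged 17.7 counts; the strand setting of the counting is not given in the sources used here.

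Chrng, the fetal gamma subunit, is not among the 10 genes and did not pass the count filter, but it is the partner that Chrne replaces. It had 5, 14 and 9 counts in injured libraries A, B and C, against 5, 5 and 7 counts in non-injured libraries A, B and C. Summed over libraries that is 28 counts in injured and 17 in non-injured muscle, a ratio per total count of 1.93. Its exact 95% interval of 1.02 to 3.75 covers counting error only. Injured B alone reached 10 counts, the floor of the table, so Chrng was kept only through an injured library. Neither the ratio nor its interval allows for that selection, which favours higher injured values. Fitted without a filter, Chrng had a log2 fold change of 0.89 ± 0.74 (SE, edgeR adjusted p 0.565).

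The share of Chrng in the reads of Chrng and Chrne together was computed after the values had been seen. It was 9.43%, 21.9% and 15.8% in injured libraries A, B and C, against 7.46%, 5.75% and 7.95% in non-injured libraries A, B and C. The exact (Clopper-Pearson) 95% intervals of single libraries were wide and overlapped in every letter pair. They were 3.13% to 20.7% in injured A and 2.47% to 16.6% in non-injured A. For letter B they were 12.5% to 34.0% (injured) and 1.89% to 12.9% (non-injured). For letter C they were 7.48% to 27.9% (injured) and 3.26% to 15.7% (non-injured). The means were 15.7% ± 6.22 in injured and 7.05% ± 1.16 in non-injured libraries (SD, n = 3 each). The groups did not overlap, and the share was higher in 3 of 3 letter pairs. Neither counts as support for a difference. Chrng is in the table only through injured B, and Chrne had already been seen to lie lower in the injured libraries. No test is given, since the quantity was chosen after its values had been seen. The difference of 8.64 percentage points was 5.56 without injured B, the library with the most Chrng counts.

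**Figure D2:**
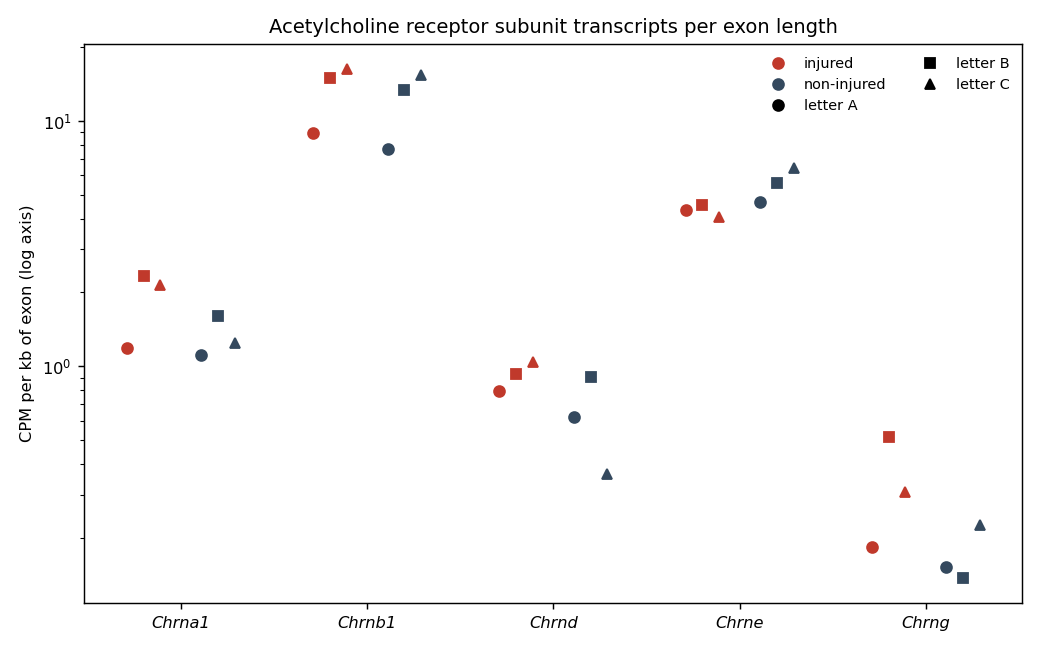
Levels of the 4 receptor subunits among the junction genes and of Chrng, in CPM per kb of annotated exon on a log axis, with 1 symbol per library. Chrnb1 is highest at 7.66 to 16.2 CPM per kb and Chrng lowest at 0.138 to 0.514 CPM per kb; injured libraries lie to the left of non-injured ones within each gene.

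Per kb of exon (all annotated exons of a gene merged, GENCODE M21), the level of Chrna1 was 1.89 ± 0.615 CPM per kb in injured and 1.32 ± 0.252 in non-injured libraries (SD, n = 3 each). On the same scale the level of Chrnb1 was 13.3 ± 3.90 CPM per kb in injured and 12.1 ± 3.96 in non-injured libraries. Chrne had 4.31 ± 0.242 CPM per kb in injured and 5.56 ± 0.869 in non-injured libraries. Chrne made up 21.6% ± 5.89 of the summed level of the 5 subunits in injured and 28.7% ± 3.72 in non-injured libraries. The groups overlapped in this share, since injured A stood at 28.2% and non-injured B at 25.9%. Chrna1 made up 8.93% ± 1.16 in injured and 6.85% ± 1.35 in non-injured libraries, again with overlap, since injured A (7.72%) lay below non-injured A (7.80%).

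Over all 6 libraries, the median levels per kb set Musk (14.9 CPM per kb) and Chrnb1 (14.1) above all other members. Then came Rapsn (6.06), Ache (5.54), Dok7 (5.25), Chrne (4.6), Lrp4 (3.25), Chrna1 (1.42), Ncam1 (0.952) and Chrnd (0.850 CPM per kb). The step below Chrnb1 was the only one between neighbours in this order whose library ranges did not overlap, the lowest Chrnb1 library being at 7.66 and the highest Rapsn library at 7.5 CPM per kb. The order depends on which isoforms are counted in the length: with the longest coding transcript of each gene, Chrnb1 (16.6) stood level with Musk (16.5) and Ache came next at 11.7 CPM per kb.

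The kinase and its partners differed in sign. Musk, the receptor kinase at the centre of the pathway, had 55.3, 57.3 and 59.5 CPM in injured libraries A, B and C, against 57.9, 39.8 and 49.4 CPM in non-injured libraries A, B and C. Non-injured A lay within the injured range, while non-injured B and C were below all injured libraries. The log2 fold change was 0.23 ± 0.16 (SE, edgeR adjusted p 0.532), and the fold interval of 0.925 to 1.48 is among the narrower ones, at a mean of 387 counts per library.

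Lrp4, the agrin receptor, had 42.7, 33.9 and 20.4 CPM in injured libraries A, B and C, against 26.3, 35.1 and 34.3 CPM in non-injured libraries A, B and C. Injured A held the highest and injured C the lowest value of all 6 libraries, so the injured range enclosed the non-injured one. Its log2 fold change was 0.02 ± 0.23 (SE, edgeR adjusted p 0.98) and turned negative in 7 of 14 alternative fits, from -0.36 to -0.017. Without both letter A libraries it was -0.36 ± 0.20 (SE, edgeR adjusted p 0.363, against 0.363 to 0.995 over all alternatives).

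Dok7, the cytoplasmic activator of MuSK, had 19.9, 23.1 and 20.2 CPM in injured libraries A, B and C, against 21.8, 28.8 and 26.9 CPM in non-injured libraries A, B and C. Injured B was above non-injured A, and otherwise the injured libraries were below the non-injured ones. The log2 fold change was -0.30 ± 0.16 (SE, edgeR adjusted p 0.42), with a fold interval of 0.637 to 1.04. Rapsn, the scaffold that clusters receptors, had 11.8, 12.7 and 9.83 CPM in injured libraries A, B and C, against 13.5, 6.77 and 10.04 CPM in non-injured libraries A, B and C. Both the highest and the lowest value were in non-injured libraries, and the log2 fold change was 0.18 ± 0.25 (SE, edgeR adjusted p 0.789). The transcript model Gm13778 overlaps an exon of Rapsn on the opposite strand and averaged 5.8 counts, against a mean of 78.2 for Rapsn.

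Ache, the esterase that clears acetylcholine from the cleft, had 20.7, 26.6 and 18.2 CPM in injured libraries A, B and C, against 24.7, 26.5 and 27.6 CPM in non-injured libraries A, B and C. Injured A and C were below all non-injured libraries, and injured B lay within the non-injured range. Its log2 fold change was -0.27 ± 0.17 (SE, edgeR adjusted p 0.492). Models on the opposite strand also overlap exons of Ache (Gm42456) and of Ncam1 (Gm11149).

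Ncam1, a cell adhesion molecule that spreads over the fibre surface after denervation and is also made by Schwann cells and satellite cells, gave the smallest p of the 10. It had 7.20, 12.7 and 12.7 CPM in injured libraries A, B and C, against 5.36, 9.30 and 6.29 CPM in non-injured libraries A, B and C. Injured B and C were above every non-injured library, and injured A lay below non-injured B. The log2 fold change was 0.63 ± 0.29 (SE, edgeR unadjusted p 0.0456, adjusted p 0.317), higher in 3 of 3 letter pairs, with a fold interval of 1.01 to 2.37. In RNA from a whole preparation, more RNA per cell and more cells of a type cannot be told apart.

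Markers of the other cells that make Ncam1 were therefore set beside it; a preparation of fibre nuclei would hold little RNA of these cells. Of 14 Schwann cell markers 10 were in the table and 9 were tested. The edgeR test called 0 of these, with 1 at an unadjusted p under 0.05, against 15.4% of all genes. DESeq2, limma-voom and the blocked fit each called 0. The summed Schwann level was 34.3 to 39.0 CPM in injured and 24.1 to 35.5 CPM in non-injured libraries. The myelin gene Mbp had 6.58, 6.72 and 7.69 CPM in injured libraries A, B and C, against 3.95, 5.17 and 2.28 CPM in non-injured libraries A, B and C (log2 fold change 0.87 ± 0.32 SE, edgeR adjusted p 0.222). Pmp22 and Cnp, from the same marker list, had log2 fold changes of -0.10 ± 0.27 and -0.13 ± 0.38 (SE, edgeR adjusted p 0.903 and 0.905). The median log2 fold change of the 9 tested Schwann markers was 0.35. S100b, Cdh19, Gap43 and Mag are not among the rows of the table, which holds only genes that reached 10 counts in a library.

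Satellite cell markers, of which 9 were tested, summed to 83.8 to 120 CPM in injured and 76.9 to 118 CPM in non-injured libraries, with a median log2 fold change of 0.05. The edgeR test called 0 of them, also at an unadjusted p under 0.05 (0), as did DESeq2 (0) and limma-voom (0). Among genes of embryonic or regenerating fibres 0 of 6 passed by edgeR, with 2 higher and 1 lower at an unadjusted p under 0.05. Of all genes 15.4% had such a p. DESeq2 called 1 of the 6 higher and limma-voom 0. With the block, where 5.86% of all genes passed, Tnnt2, an embryonic troponin, was higher, and Actc1, cardiac actin, was lower. The log2 fold change of Tnnt2 was 2.13 ± 0.50 (SE, edgeR adjusted p 0.0681) without the block. Actc1 had 43.9 CPM in non-injured B and 7.12 to 9.95 CPM in the other libraries. The part of these cells in the Ncam1 values was not tested.

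Macrophage markers did differ, with 4 of 11 higher by edgeR (Itgam, Lyz2, C1qb and Mrc1), against 0.715% of all genes. DESeq2 called 6 higher and limma-voom 3. Cd163, among the most abundant markers of this list, was not called (log2 fold change 0.31 ± 0.245 SE, edgeR adjusted p 0.596). The summed level was 112 to 194 CPM in injured and 55.2 to 68.0 CPM in non-injured libraries. Transcripts of motor axons were scarce. Of 10 such genes 3 were in the table, none passed the count filter, and the highest count was 34, for Nefh in injured B. Stmn2 had 14, 24 and 7 counts in injured libraries A, B and C, against 10, 4 and 2 counts in non-injured libraries A, B and C. Nefm had 8.1, 32 and 1 counts in injured libraries A, B and C, against 5.1, 15 and 5.1 counts in non-injured libraries A, B and C. Injured B was the highest library for all 3 axon genes. It also held the most counts of Chrng, but Chrng is in the table only because injured B reached 10 counts, so that match was set by the filter. The part of nerve in the junction values was not tested.

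**Figure D3:**
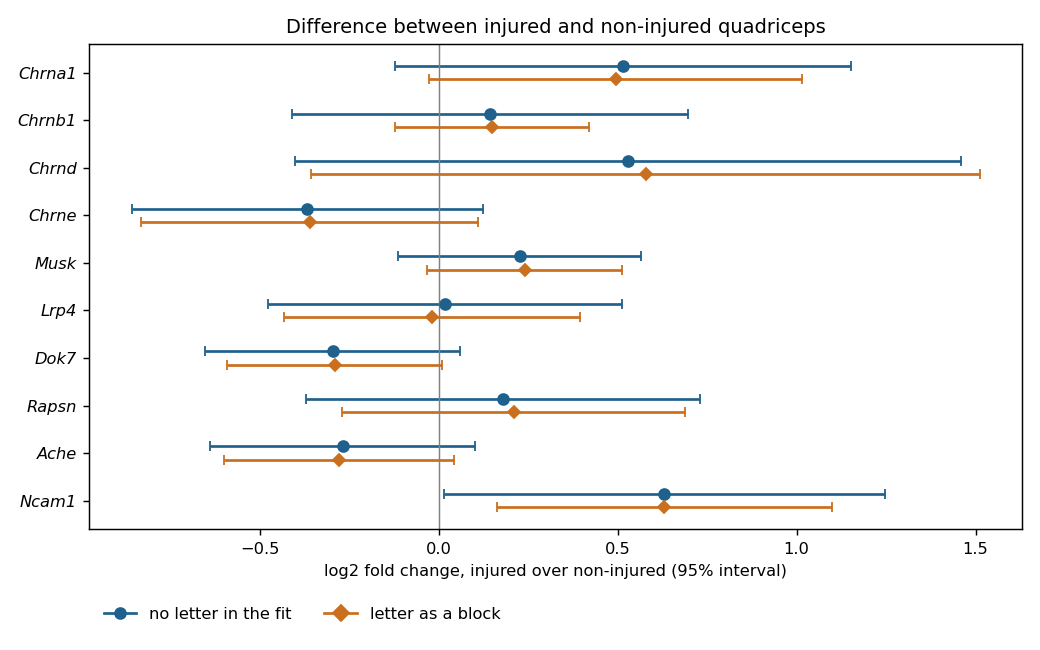
Log2 fold change of each junction gene, injured over non-injured, with its 95% interval, from the edgeR fit without the letter (circles) and with the letter as a block (diamonds). The Ncam1 interval without the block, from 0.01 to 1.25, is the only one of those 10 that leaves out 0, and the Chrnd interval is the widest, from -0.40 to 1.46.

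The upper ends of the 95% intervals ran from 1.04-fold (Dok7) to 2.75-fold (Chrnd), and the lower ends from 0.552-fold (Chrne) to 1.01-fold (Ncam1).

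Chrnb1 also differed by the letter of the library. What the letters stand for is not stated in the labels, and a test of the letters with injury in the fit was added after the values had been seen. That test asked for any difference among A, B and C, and letter A was not tested against the others. Chrnb1 had 19.4 to 22.5 CPM in the letter A libraries, against 33.8 to 41.0 CPM in those of letters B and C. It was the only 1 of the 10 genes to pass the test among letters (edgeR adjusted p 0.00656), while 3.34% of all genes did. Chrnb1 was lower in 2 of 2 letter A libraries, with a mean log2 difference of -0.84 from the other letters. The same difference was -0.63 for Ncam1 and -0.59 for Chrna1. In the edgeR test among letters their adjusted p was 0.251 (Ncam1) and 0.387 (Chrna1).

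Taken letter by letter, the log2 ratios of injured to non-injured were positive in all 3 pairs for 4 members (Chrna1, Chrnb1, Chrnd and Ncam1) and negative in all 3 for 2 (Chrne and Dok7). The other 4 had mixed signs, and 43.5% of all genes had the same sign in every pair. Chrna1 had ratios of 0.09, 0.52 and 0.73 in pairs A, B and C, and Ncam1 had 0.39, 0.43 and 0.96. Chrne had -0.10, -0.28 and -0.63 and Dok7 had -0.13, -0.31 and -0.40. These are 4 of the 6 members with the same sign in every pair. In all 4 the ratio was nearest to 0 in pair A and farthest from it in pair C. Chrnd and Chrnb1 did not share this order, which was not tested. Chrnd was nearest to 0 in pair B, at 0.03 against 0.29 in pair A, and farthest from it in pair C. For Chrnb1 the ratios were 0.21, 0.16 and 0.08, a close spread although its level differed between letters, and the standard error of its log2 fold change was 0.13 with the block and 0.26 without. Rapsn had -0.19, 0.86 and -0.03, so that its positive fold change rested on pair B; without non-injured B the log2 fold change was -0.063.

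**Figure D4:**
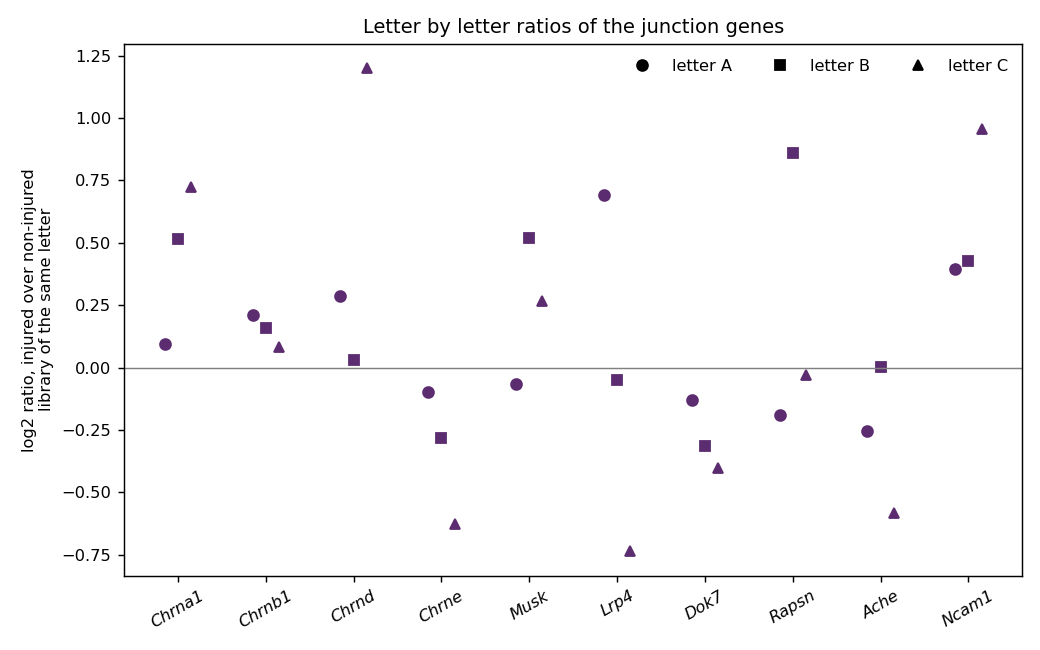
Log2 ratio of the injured over the non-injured library of the same letter for each junction gene, with 1 symbol per letter and a line at no difference. Chrna1, Chrnb1, Chrnd and Ncam1 lie above the line in all 3 pairs and Chrne and Dok7 below it, while Lrp4 runs from 0.69 in pair A to -0.74 in pair C.

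The other genes of the junction pathway were described from 4 lists holding 66 genes, of which 62 were tested. By edgeR 0 were higher and 0 lower, with 6 higher and 3 lower at an unadjusted p under 0.05, and limma-voom called 0. Of all genes tested, 15.4% had such a p in edgeR, a share close to that of the pathway genes. DESeq2 called 1 lower, Sorbs2, and with the letter as a block 2 were lower, Sorbs2 and Alg2. Over all 16095 genes DESeq2 called 75 lower and the blocked fit 427 lower. The share of pathway genes lower with the block was close to that over all genes. The median log2 fold change over the 62 genes was 0.10, and 34 were positive and 28 negative. Groups did not overlap for 16 of the 62, against 21.5% of all genes.

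Sorbs2, an SH3 adaptor of muscle whose family takes part in receptor clustering, had the smallest p of the pathway genes. It had 211, 128 and 182 CPM in injured libraries A, B and C, against 345, 255 and 311 CPM in non-injured libraries A, B and C, and the groups did not overlap. Its log2 fold change was -0.81 ± 0.19 (SE, edgeR adjusted p 0.0681), and with the block it was -0.82 ± 0.11 (adjusted p 0.000362). Sorbs2 was also called by DESeq2 (adjusted p 0.0041), without injured A (0.0395) and without both letter A libraries (0.0147), and its adjusted p over all alternatives ran from 0.000362 to 0.254. Of the 31 tested genes in its list of other postsynaptic genes, 14 were positive and 17 negative. Macf1, which links microtubules to the postsynaptic membrane, had a log2 fold change of 0.31 ± 0.13 (SE, edgeR adjusted p 0.283). For Crkl, an adaptor that DOK7 recruits, it was -0.32 ± 0.16 (adjusted p 0.348). Agrn, the agrin gene, of which muscle itself makes a form without clustering activity, stood at 0.14 ± 0.22 (adjusted p 0.817), and Utrn, the relative of dystrophin that is enriched at the junction, at 0.15 ± 0.13 (adjusted p 0.663).

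Basal lamina and secreted factors had 11 positive and 3 negative members of 14, against 8086 positive among all 16095 genes tested. The signs of this list were not tested as a set. Nrg1, neuregulin, which signals to ErbB receptors, had 3.21, 3.21 and 2.14 CPM in injured libraries A, B and C, against 1.02, 0.574 and 1.07 CPM in non-injured libraries A, B and C. These did not overlap, at a mean of 13.0 counts, and the log2 fold change was 1.67 ± 0.49 (SE, edgeR adjusted p 0.126). Only injured libraries reached 10 counts of Nrg1, the floor of the table. Nrg1 was thus kept only through the group where it is higher, and its gap and fold change do not allow for that selection. The Wnt inhibitor Sfrp1, also scarce, had a log2 fold change of 1.25 ± 0.48 (adjusted p 0.244) and the laminin chain Lama4 of 0.42 ± 0.19 (adjusted p 0.323). Nrg1 and Sfrp1 averaged under 20 counts, and tested genes in that range had a median log2 fold change of 0.39. Colq, the collagen tail that anchors acetylcholinesterase, stood at 0.10 ± 0.42 (adjusted p 0.938).

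Regulators of synaptic transcription had 6 positive and 6 negative members of 12. Myog, the myogenic factor that rises in denervated fibres and binds E-boxes such as those printed above, had 15.6, 17.1 and 21.1 CPM in injured libraries A, B and C. In non-injured libraries A, B and C it had 13.3, 6.89 and 14.3 CPM. The groups did not overlap, and the log2 fold change was 0.65 ± 0.25 (SE, edgeR adjusted p 0.25). With the block it was 0.68 ± 0.20, at the lowest adjusted p of any alternative for Myog (0.0582, up to 0.497). Erbb2, a neuregulin receptor, had a log2 fold change of 1.08 ± 0.44 at a mean of 18.2 counts (adjusted p 0.266), and Nfatc1, a factor that follows fibre activity, of -0.32 ± 0.13 (adjusted p 0.271).

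Genes of protein glycosylation whose human mutations cause congenital myasthenia had 3 positive and 2 negative members of 5. Alg2, a mannosyltransferase, had 33.2, 28.7 and 26.3 CPM in injured libraries A, B and C, against 37.0, 46.5 and 44.4 CPM in non-injured libraries A, B and C. The groups did not overlap. Its log2 fold change was -0.54 ± 0.16 (SE, edgeR adjusted p 0.126), and with the block Alg2 was lower at an adjusted p of 0.036. Over all alternatives the adjusted p of Alg2 ran from 0.0286 (without both letter A libraries) to 0.334. Gfpt1, the rate-limiting enzyme of the hexosamine pathway, stood at -0.25 ± 0.16 (adjusted p 0.507) and Gmppb at 0.12 ± 0.25 (adjusted p 0.854).

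**Figure D5:**
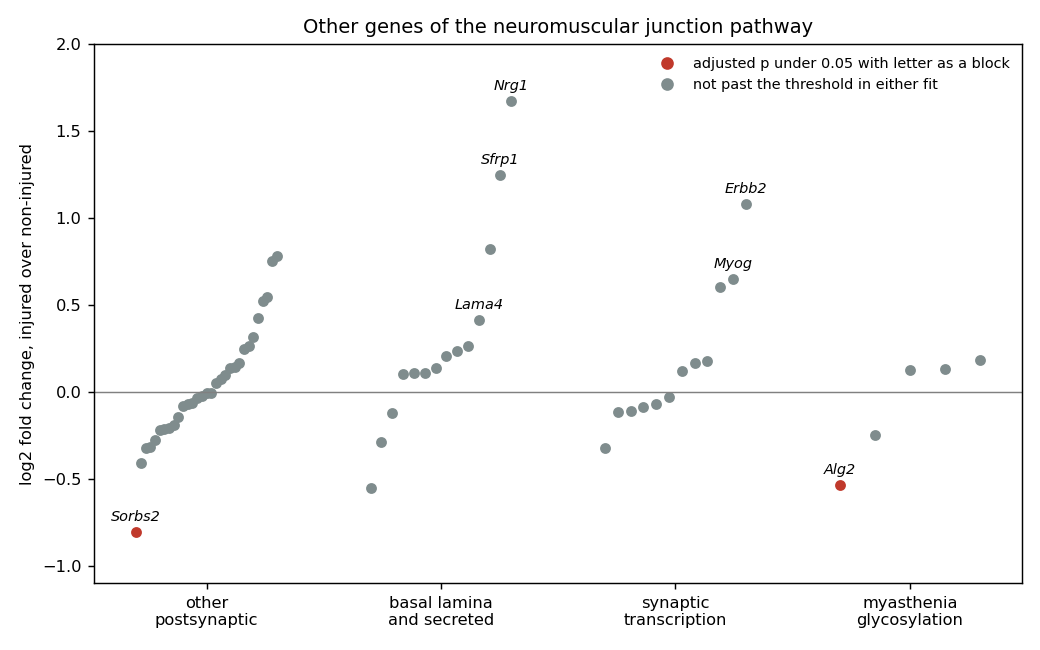
Log2 fold change, injured over non-injured, of the 62 tested genes of the 4 pathway lists, ordered by value within a list; points in red passed with the letter as a block. The 2 red points are Sorbs2 at -0.81 and Alg2 at -0.54, and the highest point is Nrg1 at 1.67.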

How the data were processed

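Values are the authors' estimated counts, deposited as 1 table with a row per gene, and 72.2% to 74.5% of those in a library are whole; the submitters' processing notes name STAR 2.7.8a, Partek, DESeq2, mm10 and hg19, without a role for any. Neither the counting tool nor its use of strand is stated. Genes under 10 counts in all libraries are outside the table.

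Counts were rounded, filtered with filterByExpr (3920 genes dropped), scaled by TMM and tested with edgeR 4.0.16 (R 4.3.3), two-sided, in 6 libraries. The SE was derived from the log2 fold change and F, and 95% intervals use the test's degrees of freedom. DESeq2 1.42.0 and limma-voom (limma 3.58.1) were alternatives, and all were tested on simulated data. Letter-pair ratios use log2 of CPM plus 0.5. The 10 genes and all lists were chosen with earlier results of these data known. Named were the members, pathway genes past the threshold with or without the block, the 3 smallest p per list, Chrng, Agrn, Colq, Myog and Utrn, and marker genes of highest level.

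Deviations from group means correlated between libraries of the same letter at 0.339 (A), 0.221 (B) and 0.12 (C), all over 0.1. Between libraries of different letters the correlations ran from -0.247 to 0.071. Deviations from a group mean cancel within the group, so positive same-letter values make the others negative on balance. The contrast is thus partly fixed by the centring. The letters were taken as pairs in the blocked fit and the letter-pair ratios only, and the main fit left them out. The pairing comes from the letters in the sample titles.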

Additional observations from a re-analysis of the deposited data

How the results depend on the processing

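Of the 10 junction genes 0 were called higher and 0 lower under all 14 alternatives, and the lowest adjusted p of any of them was 0.105 (Ncam1, replicate block). Of 139 fold changes under an alternative, 129 kept their sign and 10 turned, those of Lrp4, Chrnb1 and Rapsn. Lrp4 was -0.037 without a filter, -0.040 with limma-voom, -0.017 with the replicate block and -0.36 without both letter A libraries. When 1 library was left out, Lrp4 ran from -0.25 to 0.24, Chrnb1 from -0.12 to 0.35, Rapsn from -0.063 to 0.43, Agrn from -0.08 to 0.29 and Colq from -0.42 to 0.38. Pathway genes called lower numbered 1 with DESeq2, 2 with the replicate block, 2 without both letter A libraries and 0 to 1 when 1 library was left out. Over all genes, 252 higher and 75 lower were called by DESeq2, 53 higher by limma-voom, and 516 higher and 427 lower with the replicate block. Lower genes numbered 17 without a filter, 3 when genes averaging under 50 counts were left out, and 132 without both letter A libraries. Leaving out 1 library gave 20 to 104 higher and 0 to 25 lower genes. The median of all genes moved by at most 0.05 with another scaling. The block changed no call other than those of Sorbs2 and Alg2 among the junction and pathway genes. Chrnb1 was the member that differed between letters under each of the 4 other scalings and filters tried (adjusted p 0.00181 to 0.00619); that test was not run with DESeq2, limma-voom or fewer libraries. The cause of these changes was not tested. Among the named junction and pathway genes, depth limits Chrnd, Chrng, Nrg1, Sfrp1 and Erbb2, with means under 20 counts. Genes of the main fit with such means had a median log2 fold change of 0.39.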
